A study of Mus musculus with 18 samples.

Results

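Type I interferon-stimulated antiviral genes were described as a set of 45 listed mouse genes, of which 42 were measured on the arrays among 11547 genes tested in all. A member was matched through the gene symbols that the array platform's annotation gives to its probe sets, with Rigi read as Ddx58, Trim30a as Trim30 and Trim34a as Trim34. No value is given for Isg15, whose only probe set is annotated to a further gene as well, and Oas1g and Ifi44 were not analysed here. All 42 measured members passed the filter on low values, and 40 of them reached the array median on all 18 arrays.

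The cells were RAW264.7, an established line of mouse macrophages, and 18 one-colour arrays formed 6 groups of 3. The groups were 10 ug/mL of a sub-fraction from the herb St. John's wort, Hypericum perforatum, with LPS and without it, a 4-compound mixture with LPS and without it, and the vehicle with LPS and without it. Quercetin (0.08 uM), pseudohypericin (0.03 uM), the biflavone amentoflavone (0.07 uM) and the plant phenolic chlorogenic acid (0.2 uM) made up the mixture. LPS, the bacterial cell wall component that macrophages sense, was given at 10 ug/mL for 8 h, the vehicle was 0.1% DMSO, and all groups were kept dark while treated and then had 30 min of ambient light. The labels do not give the cultures behind the 3 arrays per group, so p-values measure only the spread between these arrays. Correlations between arrays of one group ran from 0.970 to 0.979 across genes. All 8 macrophage markers lay above the array median on all 18 arrays, with summed intensities of 74695 to 84161 in fraction cells, 85199 to 94781 in mixture cells and 70201 to 85062 in vehicle cells. With LPS the sums were 87109.5 to 96679.5 in fraction cells, 98498 to 105110.2 in mixture cells and 88698 to 96228 in vehicle cells, so that the mixture ranges lay above the others. Of 13 markers of other cell types 11 had a probe set, none was above the median on all 18 arrays, and their summed intensity was 162 to 409. In bulk RNA, fewer cells with a transcript and less of it per cell cannot be told apart.

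Type I interferons are secreted when a cell senses microbial molecules. LPS is sensed by the receptor TLR4, whose adaptor TRIF leads to activation of the transcription factor IRF3 and to production of interferon beta. Interferon then binds the receptor IFNAR on the same and neighbouring cells, and STAT2 with IRF9 then acts in the nucleus at the interferon-stimulated response element, in which a GAAA repeat is the core. The genes so switched on block viral RNA and protein synthesis, sense foreign nucleic acid or adjust the signal itself. Macrophages carry a low level of this programme without infection.

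RefSeq promoter windows (build GRCm38.p6, 250 bases before to 50 after a start site) were at hand for 31 of the 42 measured members. The motif, GAAA followed by any pair of bases and again GAAA, was searched on both strands with overlapping matches counted. It was present in a window of 13 of those 31 members (41.9%), and in 3.99% of 27025 genes with a window. The 5 sequences that follow are the 250 bases before the start site, 5′ to 3′ on the strand of the gene, with bases of a match in capitals. Ifit1 (chr19:34640639-34640888, plus strand), Ifit3 (chr19:34583279-34583528, plus strand) and Rsad2 (chr12:26456453-26456702, minus strand) are shown because they are among the 6 members that fell most with the fraction and have a match. Cmpk2 and Pml, also among those 6, had a window without a match. Oas1a (chr5:120907526-120907775, minus strand) and Bst2 (chr8:71537473-71537722, minus strand) are shown because they did not pass the test there and have a match. Isg20, Ube2l6 and Xaf1 did not pass either, and their windows had no match.
Ifit1: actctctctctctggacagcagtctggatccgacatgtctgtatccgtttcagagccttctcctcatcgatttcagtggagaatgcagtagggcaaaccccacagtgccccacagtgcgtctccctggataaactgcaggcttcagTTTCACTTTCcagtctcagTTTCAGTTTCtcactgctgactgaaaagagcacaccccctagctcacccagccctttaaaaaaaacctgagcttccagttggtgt
Ifit3: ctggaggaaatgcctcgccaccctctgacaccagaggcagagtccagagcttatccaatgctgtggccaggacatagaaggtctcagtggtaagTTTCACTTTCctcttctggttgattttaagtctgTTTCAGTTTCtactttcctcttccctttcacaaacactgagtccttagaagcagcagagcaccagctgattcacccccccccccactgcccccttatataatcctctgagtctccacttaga
Rsad2: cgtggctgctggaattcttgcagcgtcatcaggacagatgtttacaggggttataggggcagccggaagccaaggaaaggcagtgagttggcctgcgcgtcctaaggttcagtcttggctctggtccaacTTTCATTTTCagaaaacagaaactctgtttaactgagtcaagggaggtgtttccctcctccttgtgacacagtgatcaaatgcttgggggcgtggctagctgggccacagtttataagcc
Oas1a: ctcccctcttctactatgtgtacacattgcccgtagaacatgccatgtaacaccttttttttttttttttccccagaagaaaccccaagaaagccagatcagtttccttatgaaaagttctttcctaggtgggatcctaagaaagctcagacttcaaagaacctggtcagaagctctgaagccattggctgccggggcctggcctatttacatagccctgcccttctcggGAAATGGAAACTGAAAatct
Bst2: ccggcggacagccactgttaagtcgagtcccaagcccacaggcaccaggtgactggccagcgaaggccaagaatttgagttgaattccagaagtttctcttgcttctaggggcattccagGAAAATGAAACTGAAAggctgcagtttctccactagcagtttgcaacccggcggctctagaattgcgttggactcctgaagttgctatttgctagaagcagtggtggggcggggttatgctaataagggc
The matches of Ifit1 began 104 and 85 bases before the start site, those of Ifit3 156 and 122 bases before it, and that of Rsad2 120 bases before it, all on the strand opposite to the gene. Oas1a had overlapping matches on its own strand that began 20 and 14 bases before the start site, and Bst2 had them 130 and 124 bases before it. Since the genes shown were taken from those with a match, they do not tell how often either set holds the motif. Of the members with a window, the motif was present in 8 of the 23 that fell with the fraction without LPS (34.8%). It was present in 5 of the 8 that did not pass that test (62.5%). The median log2 difference there was -0.99 for the 13 members with a match (-2.55 to 0.36). For the 18 without a match it was -0.65 (-2.33 to -0.3), so the ranges overlapped. A match describes these letters only and was not tested as a binding site.

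The fraction lowered most of these genes in resting macrophages. Without LPS, 34 of 42 members fell in fraction cells against vehicle cells and none rose, with a median log2 difference of -0.86 where that of all tested genes was 0.02. Falls made up 15.3% of all tested genes. The 3 fraction arrays all lay under the 3 vehicle arrays for 30 members, as they did for 20.6% of all tested genes. Falls of more than 2-fold were seen in 16 members, a count with no share of all tested genes beside it. The members that did not pass were Isg20, Bst2, Oas1a, Oas3, Ifi203, Ube2l6, Trim34 and Xaf1. Of 20 members with more than 1 probe set, 7 had sets that differed in this call (Adar, Dhx58, Herc6, Parp14, Sp100, Xaf1 and Zbp1). Adjusted p-values throughout are from limma's moderated test over all tested genes with Benjamini-Hochberg adjustment and a threshold of 0.05. The deposited arrays shared one trimmed mean, and centring them on their medians in its place moved the median of all genes to -0.11 and that of the members to -0.99, with 34 members still past the threshold.

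LPS raised nearly all of them. In vehicle cells 37 of 42 members rose with LPS and none fell (rises were 10.1% of all tested genes), with a median log2 difference of 0.97 where that of all tested genes was -0.07. The arrays did not overlap for 36 members (14.7% of all tested genes). In fraction cells 40 members rose with LPS (11.5% of all tested genes) with a median of 1.46, and in mixture cells 37 rose (8.32%). The LPS labels were borne out by Il1b, an inflammatory cytokine, which had 12089 to 13238 intensity units in fraction cells with LPS against 39.7 to 72.8 without it, and 11896 to 14611 in vehicle cells with LPS against 59.7 to 101 without it. Centring on array medians moved the all-gene median for LPS in vehicle cells to -0.21 and left 31 members past the threshold, with a median of 0.83.

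With LPS present, the fraction lowered fewer of them. There 10 of 42 members fell in fraction cells against vehicle cells and none rose (falls were 12.7% of all tested genes). The median log2 difference was -0.41 where that of all tested genes was -0.02, and 20 members had an unadjusted p under 0.05 by limma. The arrays of 6 members did not overlap, all lower with the fraction. That is a smaller share than the 18.7% of all tested genes, so by this measure the members did not stand out. Those 10 were Ifit1, Ifit3, Samd9l, Oas2, Eif2ak2, Herc6, Parp9, Dtx3l, Sp100 and Pml, and all 10 had also fallen without LPS. Among 20 members with more than 1 probe set, the sets differed in this call for 6 (Adar, Cmpk2, Ifi35, Pml, Sp100 and Tor3a). With the replicate number of the arrays as a block in the model, 26 members passed, 1 of them as higher. The count of 10 also turned on single arrays. It was 22 without fraction array 2, 5 without fraction array 1, 16 without vehicle array 1 and 6 without vehicle array 3, all with LPS.

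**Figure D1:**
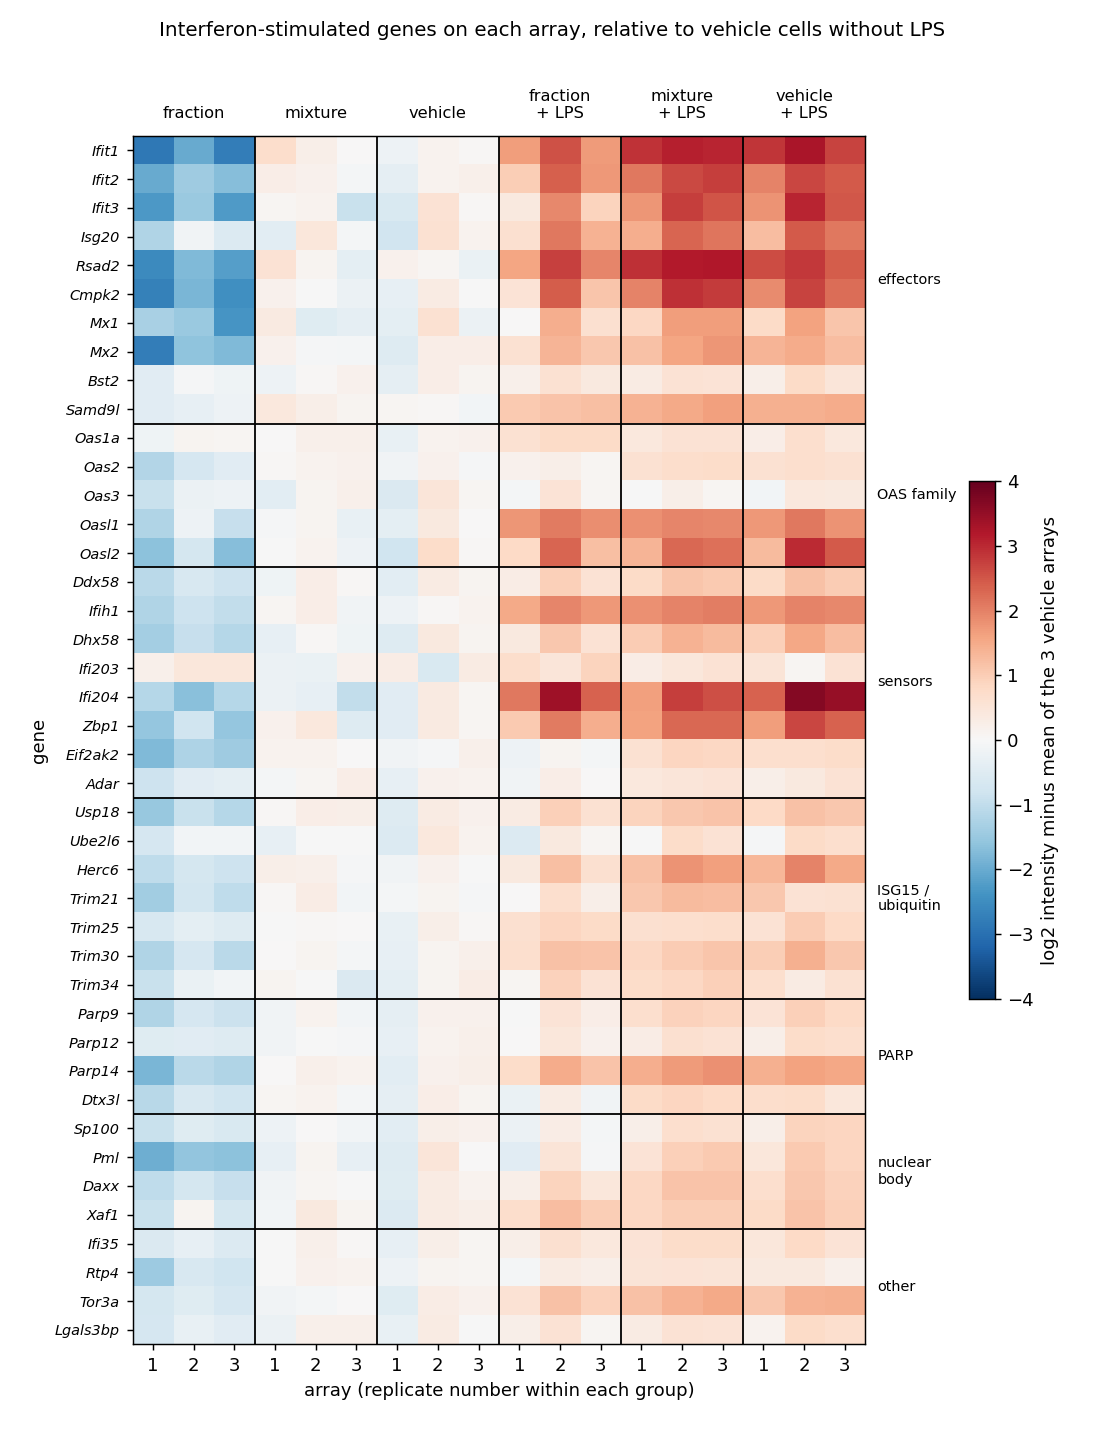
Colour shows the log2 intensity of each of the 42 measured members (rows, by role) on each of the 18 arrays (columns, 3 per group) minus the mean of the 3 vehicle arrays without LPS. Fraction arrays without LPS are below that mean for most members, mixture arrays without LPS lie near it, and vehicle and mixture arrays with LPS are above it for most. Fraction arrays with LPS lie less far above it for Ifit1, and near it for Eif2ak2, Dtx3l and Pml.

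The effectors that act on viral RNA and particles held the steepest falls with the fraction without LPS. Of 10 measured, 8 fell with the fraction without LPS with a median of -1.86, 10 rose with LPS in vehicle cells with a median of 2.10, and 3 fell with the fraction in the presence of LPS. Ifit1, which binds RNA that lacks the host's cap methylation, had intensities of 150.5, 270.3 and 163 in fraction cells, against 965, 1219.9 and 1134 in vehicle cells. Every fraction array lay far under every vehicle array, and the log2 difference was -2.55 ± 0.23 (SE, 5.86-fold lower, adjusted p = 7.9e-08). With LPS it had 3524, 6431 and 3583 in fraction cells, against 8004, 10536 and 7186 in vehicle cells. The groups again did not overlap, though the fall was smaller at -0.97 ± 0.23 (adjusted p = 0.0041), and the LPS response itself was 2.94 ± 0.23 in vehicle cells (adjusted p = 1.2e-08).

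Rsad2 (viperin), which makes a nucleotide analogue that ends viral RNA chains, and Cmpk2, a mitochondrial nucleotide kinase encoded beside it, followed closely. Rsad2 had 492, 851 and 617 in fraction cells, against 3219, 3048 and 2406 in vehicle cells. All fraction arrays were under all vehicle arrays, by -2.17 ± 0.25 (4.51-fold lower, adjusted p = 2.1e-06). With LPS its fraction arrays, at 8584, 18911 and 11194, overlapped the vehicle arrays, at 17631, 20546 and 15398, through the high fraction array 2. That difference of -0.54 ± 0.25 did not pass (adjusted p = 0.13). Rsad2 rose by 2.63 ± 0.25 with LPS in vehicle cells (adjusted p = 1.7e-07). Cmpk2 had 295, 541 and 356 in fraction cells, against 1550.2, 2442 and 1899.9 in vehicle cells, a fall of -2.33 ± 0.35 with no overlap (5.02-fold lower, adjusted p = 4.3e-05). With LPS it had 2828, 10336 and 4205 in fraction cells and 7211, 12451 and 9078 in vehicle cells, which overlapped (-0.91 ± 0.35, adjusted p = 0.066). The other probe set of Cmpk2, tested on its own, did pass as lower (-1.09 ± 0.35, adjusted p = 0.03). Its rise with LPS in vehicle cells was 2.27 ± 0.35 (adjusted p = 5e-05).

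Ifit2 and Ifit3, relatives of Ifit1 in the same family, fell by -1.71 ± 0.27 (adjusted p = 6.8e-05) and -2.01 ± 0.40 (adjusted p = 0.00063) with the fraction without LPS. Ifit3 had 149, 261 and 154 in fraction cells, against 478, 1089 and 759 in vehicle cells, with no overlap. With LPS it had 952, 2778 and 1362 in fraction cells, against 2577, 6058 and 4079 in vehicle cells. Those arrays overlapped through fraction array 2, and the fall of -1.38 ± 0.40 passed (adjusted p = 0.015). It no longer did without fraction array 1 (-1.04, adjusted p = 0.092), fraction array 3 (-1.30, adjusted p = 0.056) or vehicle array 2 (-1.08, adjusted p = 0.084), all with LPS. Ifit2 had 386, 584 and 482 in fraction cells against 1223, 1721 and 1790 in vehicle cells, and with LPS 3047, 8114 and 5166 against 6131, 10008 and 8595. It was lower on every fraction array without LPS, and its arrays overlapped with LPS (-0.68 ± 0.27, adjusted p = 0.072). Both rose with LPS in vehicle cells, Ifit2 by 2.38 ± 0.27 (adjusted p = 1.4e-06) and Ifit3 by 2.44 ± 0.40 (adjusted p = 8.8e-05).

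Mx1 and Mx2 encode dynamin-like GTPases that trap viral components, in the mouse in the nucleus and in the cytoplasm. Mx2 had 89.4, 199 and 180.5 in fraction cells, against 424, 731 and 734 in vehicle cells. The groups were well apart, by -2.05 ± 0.26 (4.14-fold lower, adjusted p = 6e-06). In the presence of LPS it had 934, 1566 and 1277 in fraction cells and 1583, 1722 and 1451 in vehicle cells, which overlapped (-0.36 ± 0.26, adjusted p = 0.35). Mx1 had 94.1, 82.6 and 44.8 in fraction cells, against 177, 349.9 and 196 in vehicle cells, near the array medians of 52.1 to 66.8, and fell by -1.71 ± 0.36 (adjusted p = 0.0013). With LPS Mx1 had 232, 623 and 362 in fraction cells and 392, 706 and 492 in vehicle cells, which overlapped (-0.46 ± 0.36, adjusted p = 0.40). Its rise with LPS in vehicle cells was 1.16 ± 0.36 (adjusted p = 0.019), and that call was lost without vehicle array 1 (0.97, adjusted p = 0.084) or 3 (1.05, adjusted p = 0.068) without LPS, or vehicle array 2 with LPS (0.93, adjusted p = 0.10).

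The remaining effectors differed less between fraction and vehicle cells. Samd9l, a restriction factor of poxviruses, had 1101, 1194 and 1312 in fraction cells, against 1598, 1548 and 1393 in vehicle cells, and with LPS 3097, 3328 and 3489 in fraction cells, against 4037, 4079 and 4189 in vehicle cells. The falls were small and alike, -0.33 ± 0.095 without LPS (adjusted p = 0.011) and -0.31 ± 0.095 with it (adjusted p = 0.02), with no overlap in either state. The first was lost without fraction array 1 (-0.27, adjusted p = 0.061), and the call with LPS without fraction array 1 (-0.27, adjusted p = 0.088) or vehicle array 3 (-0.30, adjusted p = 0.058). Isg20, an RNA exonuclease, ranged from 573 to 1196 in fraction cells and from 769 to 2008 in vehicle cells (-0.63, adjusted p = 0.25). Bst2 (tetherin), which holds budding virions at the membrane, had 3244, 4306 and 3944 in fraction cells and 3445, 5324 and 4741 in vehicle cells, with overlap (-0.22, 95% confidence interval -0.56 to 0.12).

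**Figure D2:**
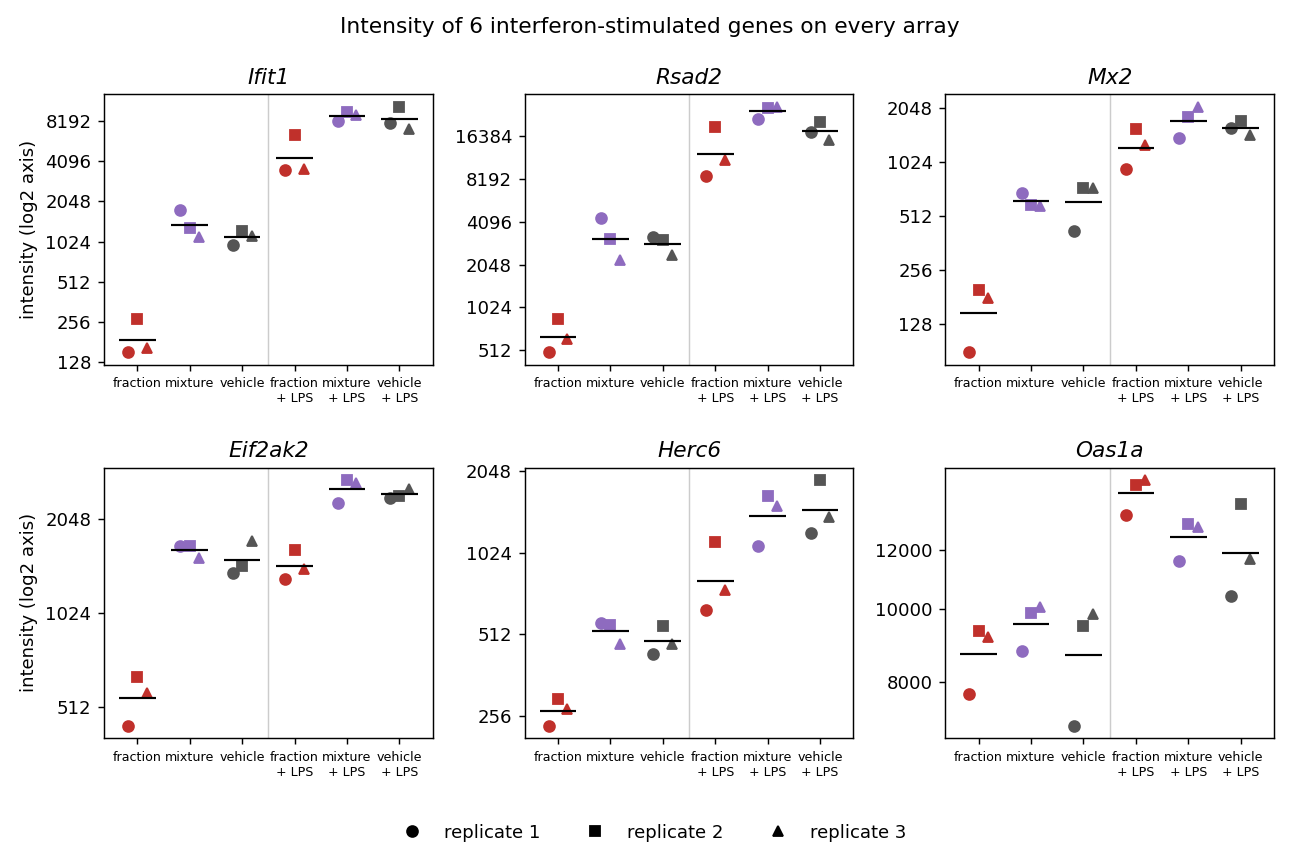
Each point is the intensity of a gene (log2 axis) on 1 array, with the shape giving the replicate number and the line the mean of the log2 values, for fraction, mixture and vehicle groups without LPS (left) and with LPS (right). In Ifit1, Rsad2, Mx2, Eif2ak2 and Herc6 the fraction arrays without LPS lie under the vehicle arrays, and in Oas1a they overlap.

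The active enzymes of the oligoadenylate synthetase family make the signal molecule that activates the RNA-cutting enzyme RNase L. Of 5 measured members, 3 fell with the fraction without LPS (Oas2, Oasl1 and Oasl2) and only Oas2 did so with LPS, while 4 rose with LPS in vehicle cells. Oas2 had 1047, 1479 and 1714 in fraction cells, against 2167, 2686 and 2282 in vehicle cells, and with LPS 2654, 2807 and 2492 in fraction cells, against 3585, 3813 and 3646 in vehicle cells. Neither pair of groups overlapped, and the differences were -0.77 ± 0.13 (adjusted p = 0.0001) and -0.47 ± 0.13 (adjusted p = 0.0092). Oas1a behaved otherwise. It had 7714, 9348 and 9178 in fraction cells, against 6994, 9510.2 and 9847 in vehicle cells, and with LPS 13365, 14655 and 14888 in fraction cells, against 10406, 13836 and 11688 in vehicle cells. The differences were 0.01 ± 0.12 (95% confidence interval -0.24 to 0.25) and 0.26 ± 0.12 (0.02 to 0.51), with overlap in both states and adjusted p-values of 0.98 and 0.12. Its rise with LPS in vehicle cells was 0.45 ± 0.12 (adjusted p = 0.0062), lost without vehicle array 2 with LPS (0.34, adjusted p = 0.051).

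Oasl1, which in the mouse holds down translation of the interferon regulator Irf7, had 1687, 3336 and 2023 in fraction cells, against 2929.9, 5066 and 3894 in vehicle cells. The groups overlapped through fraction array 2, and the fall was -0.78 ± 0.20 (adjusted p = 0.0053). With LPS it had 13111, 16342 and 14142 in fraction cells and 12968, 16619 and 13303 in vehicle cells, nearly the same ranges (0.03 ± 0.20). Oasl2 fell by -1.34 ± 0.43 (adjusted p = 0.023), and this call was lost without fraction array 1 (-1.19, adjusted p = 0.081) or 3 (-1.16, adjusted p = 0.088) or vehicle array 2 (-0.97, adjusted p = 0.14) or 3 (-1.32, adjusted p = 0.058). Oas3 ranged from 1224 to 1986 in fraction cells and from 1530 to 3163 in vehicle cells (-0.44, adjusted p = 0.18), and was also the family's member that did not pass with LPS in vehicle cells (0.24, adjusted p = 0.48).

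Among the 8 nucleic acid sensors and their effector kinases, 7 fell with the fraction without LPS, 7 rose with LPS in vehicle cells and 1 fell with the fraction in the presence of LPS. That one was Eif2ak2 (PKR), the kinase that stops translation when it binds double-stranded RNA. It had 448, 641 and 571 in fraction cells, against 1374, 1451 and 1739.9 in vehicle cells, and with LPS 1314, 1628 and 1419.8 in fraction cells, against 2387, 2429 and 2545 in vehicle cells. The groups did not overlap in either state, at -1.47 ± 0.12 (2.77-fold lower, adjusted p = 2.7e-08) and -0.76 ± 0.12 (1.69-fold lower, adjusted p = 0.00014). Its fraction arrays with LPS thus fell within the range of intensity seen in vehicle cells without LPS, except for the lowest.

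The RNA helicases Ddx58 (RIG-I) and Ifih1 (MDA5) start interferon production when they meet viral RNA. Ddx58 had 1429.9, 1934 and 1732 in fraction cells, against 2253, 3849.7 and 3254 in vehicle cells, without overlap (-0.85 ± 0.18, adjusted p = 0.0014). In the presence of LPS it had 3718, 5866 and 4523 in fraction cells and 5168, 6868 and 6162 in vehicle cells, which overlapped (-0.38 ± 0.18, adjusted p = 0.15). Ifih1 had 1122, 1465 and 1307 in fraction cells, against 2255, 2661 and 2857 in vehicle cells, with no overlap (2.00-fold lower, 95% confidence interval of the log2 difference -1.27 to -0.73, adjusted p = 7.7e-06). When LPS was given it had 7369.5, 10070.3 and 8602 in fraction cells and 8599.6, 10154 and 9676 in vehicle cells, with overlap (-0.13 ± 0.13, adjusted p = 0.50). Their rises with LPS in vehicle cells were 0.98 ± 0.18 (adjusted p = 0.00038) for Ddx58 and 1.87 ± 0.13 (adjusted p = 1.9e-09) for Ifih1. The other probe sets of Ddx58, each tested on its own, did not pass there (-0.16, adjusted p = 0.66, and 0.62, adjusted p = 0.058). The rise of Ddx58 also lost its call when the mean of its probe sets was used (adjusted p = 0.066). Dhx58 (LGP2), a helicase that tunes Ddx58 and Ifih1, fell by -1.14 ± 0.21 without LPS (adjusted p = 0.00034).

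Ifi204, a sensor of DNA in mouse macrophages, had the largest rise with LPS among the members in vehicle cells, though not in fraction cells, where Ifit1 rose most, or in mixture cells, where Rsad2 did. It had 801, 1994 and 1756 with LPS in vehicle cells, against 116, 201 and 167 without it, 8.98-fold apart (3.17 ± 0.36, adjusted p = 1.8e-06). With the fraction it had 70.8, 49.9 and 70.8, at the level of the array medians and under all vehicle arrays (-1.32 ± 0.36, adjusted p = 0.0088), and with LPS 683, 1655 and 811, which overlapped the vehicle arrays (-0.54 ± 0.36, adjusted p = 0.32). Zbp1, which binds left-handed nucleic acid and starts cell death, had 121, 204 and 121 in fraction cells, against 259.9, 453 and 370.4 in vehicle cells (-1.29 ± 0.31, no overlap, adjusted p = 0.0033). With LPS Zbp1 had 731, 1493 and 967 in fraction cells and 1117, 2229 and 1791 in vehicle cells (-0.69 ± 0.31, adjusted p = 0.11). The probe set of Zbp1 is of a kind open to cross-hybridization, and the one designed for a single gene gave -0.75 without LPS (adjusted p = 0.062). Ifi203, a relative of Ifi204, was higher on average with the fraction (109 to 131, against 62.6 to 119.5 in vehicle cells) but overlapped and did not pass (0.36, adjusted p = 0.30).

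Adar, which edits adenosine to inosine in double-stranded RNA, had 1489, 1931 and 2016 in fraction cells, against 2094, 2998 and 2941 in vehicle cells, without overlap (-0.56 ± 0.14, adjusted p = 0.0058). The LPS groups had 2396, 3195 and 2676 in fraction cells and 3096, 3446 and 3923 in vehicle cells (-0.34 ± 0.14, adjusted p = 0.094). Its 3 probe sets parted there: when each probe set was tested on its own, one of the other two was higher in fraction cells with LPS (0.61 ± 0.13, adjusted p = 0.0026), with mean intensities of 2533 in fraction cells and 1674 in vehicle cells. Adar rose by 0.39 ± 0.14 with LPS in vehicle cells (adjusted p = 0.043), a call that did not hold without vehicle array 1 without LPS (0.23, adjusted p = 0.26), vehicle array 2 with LPS (0.40, adjusted p = 0.09) or vehicle array 3 with LPS (0.31, adjusted p = 0.18). It was also lost, with a log2 difference of 0.39, when any of several mixture or fraction arrays was left out, with adjusted p-values of 0.051 to 0.053.

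Genes of the ISG15 and ubiquitin system tag proteins of host and virus. Of 7 measured, 5 fell with the fraction without LPS, 5 rose with LPS in vehicle cells, and Herc6 alone fell with the fraction in the presence of LPS. Herc6, the ligase that attaches ISG15 in the mouse, had 236, 296 and 271 in fraction cells, against 433, 547 and 473 in vehicle cells, and with LPS 629, 1117 and 744 in fraction cells, against 1206, 1898 and 1382 in vehicle cells. No arrays overlapped, and by this probe set the falls were nearly equal at -0.85 ± 0.20 (adjusted p = 0.0026) and -0.87 ± 0.20 (adjusted p = 0.0032). Its other probe sets, each tested on its own, were less alike. Without LPS they gave -0.57 (adjusted p = 0.061), -0.50 (adjusted p = 0.099) and -1.07 (adjusted p = 0.00041). With LPS they gave, in the same order, -0.94, -1.01 and -0.71, all past the threshold. Usp18, which removes ISG15 and damps the interferon receptor, had 2991, 4666 and 3927 in fraction cells, against 6097, 10906 and 9662 in vehicle cells (-1.18 ± 0.19, no overlap, adjusted p = 7.1e-05). With LPS Usp18 had 10942, 16572 and 13213 in fraction cells and 14993, 19267 and 18222 in vehicle cells, with overlap (-0.38 ± 0.19, adjusted p = 0.16). The ubiquitin ligases Trim21, an intracellular antibody receptor, and Trim25, which acts on RIG-I, fell by -1.05 and -0.51 without LPS (adjusted p = 0.00013 and 0.002), and Trim30 by -0.99 (adjusted p = 9.5e-05). Ube2l6, the conjugating enzyme for ISG15, and Trim34 passed neither with the fraction without LPS (-0.30 and -0.42) nor with LPS in vehicle cells (0.47 and 0.54).

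The ADP-ribosyl transferases Parp9, Parp12 and Parp14 and the ligase Dtx3l, partner of Parp9, fell together without LPS, 4 of 4 with a median of -0.88, and all 4 rose with LPS in vehicle cells. Dtx3l had 786, 1089 and 964 in fraction cells, against 1319.7, 2021 and 1809 in vehicle cells, and with LPS 1417, 2101 and 1537 in fraction cells, against 2743, 2818 and 2301 in vehicle cells. Neither pair overlapped, and the falls were -0.85 ± 0.16 (adjusted p = 0.00033) and -0.65 ± 0.16 (adjusted p = 0.0043). Parp9 fell by -0.90 ± 0.16 without LPS (adjusted p = 0.00029) and by -0.50 ± 0.16 with it (adjusted p = 0.031), the second a call lost when fraction array 1 (-0.36, adjusted p = 0.16) or 3 (-0.50, adjusted p = 0.076) or vehicle array 2 (-0.41, adjusted p = 0.13) or 3 (-0.48, adjusted p = 0.075) with LPS was left out. Parp14 fell by -1.36 ± 0.19 without LPS (adjusted p = 2.6e-05) and did not pass with it (-0.39, adjusted p = 0.16). Parp12 fell by -0.48 ± 0.14 without LPS (adjusted p = 0.014), a call lost without vehicle array 2 (-0.41, adjusted p = 0.067) or 3 (-0.39, adjusted p = 0.075).

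Pml, Sp100 and Daxx build the nuclear bodies that silence incoming viral DNA. All 3 fell with the fraction without LPS, and Pml and Sp100 did so with LPS. Pml had 209, 274 and 260.1 in fraction cells, against 575, 1135 and 833 in vehicle cells, with no overlap (-1.73 ± 0.24, 3.32-fold lower, adjusted p = 1.9e-05). Under LPS it had 599.6, 1158 and 785 in fraction cells and 1115, 1680.5 and 1489.6 in vehicle cells, and fell by -0.79 ± 0.24 with overlap (adjusted p = 0.022). That call was lost without fraction array 1 (-0.56, adjusted p = 0.13) or 3 (-0.76, adjusted p = 0.066) or vehicle array 2 (-0.66, adjusted p = 0.094) or 3 (-0.74, adjusted p = 0.062) with LPS. Sp100 fell by -0.67 ± 0.19 in both states (adjusted p = 0.01 and 0.013), lost without LPS when fraction array 1 (-0.55, adjusted p = 0.055) or vehicle array 2 (-0.56, adjusted p = 0.057) was left out. With LPS its call was lost without fraction array 1 (-0.55, adjusted p = 0.07) or vehicle array 2 (-0.56, adjusted p = 0.069) or 3 (-0.57, adjusted p = 0.06). The probe set used for Sp100 is of a kind open to cross-hybridization. Its other probe set, tested on its own, passed neither without LPS (-0.71, adjusted p = 0.12) nor with it (-0.76, adjusted p = 0.11). Daxx fell by -0.87 ± 0.18 without LPS (adjusted p = 0.00083). Xaf1, an antagonist of the cell death inhibitor XIAP, did not pass with the fraction (-0.49, adjusted p = 0.11) and rose with LPS in vehicle cells by 0.95 ± 0.23 (adjusted p = 0.003).

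Of the other 4 interferon-induced genes, all fell with the fraction without LPS, and none passed with LPS by the probe set used. Rtp4, a chaperone of membrane receptors, had 3197, 5578 and 5062 in fraction cells, against 7617, 9474 and 9265 in vehicle cells (-0.96 ± 0.15, no overlap, adjusted p = 6.1e-05), though its rise with LPS in vehicle cells did not pass (0.33 ± 0.15, adjusted p = 0.10). Ifi35 fell by -0.49 ± 0.13 (adjusted p = 0.0058) and Tor3a, an ATPase of the endoplasmic reticulum, by -0.61 ± 0.17 (adjusted p = 0.0087), a call that was lost without vehicle array 2 (-0.46, adjusted p = 0.063). With each probe set tested on its own, both other sets of Tor3a were lower with LPS (-0.60, adjusted p = 0.0018, and -0.56, adjusted p = 0.04), as was one of the other two of Ifi35 (-0.80, adjusted p = 0.00076). Lgals3bp, a secreted partner of galectin, lay close to the threshold (-0.47 ± 0.17, adjusted p = 0.046) and was lost when any of 8 single arrays was left out, with adjusted p-values from 0.05 to 0.23.

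**Figure D3:**
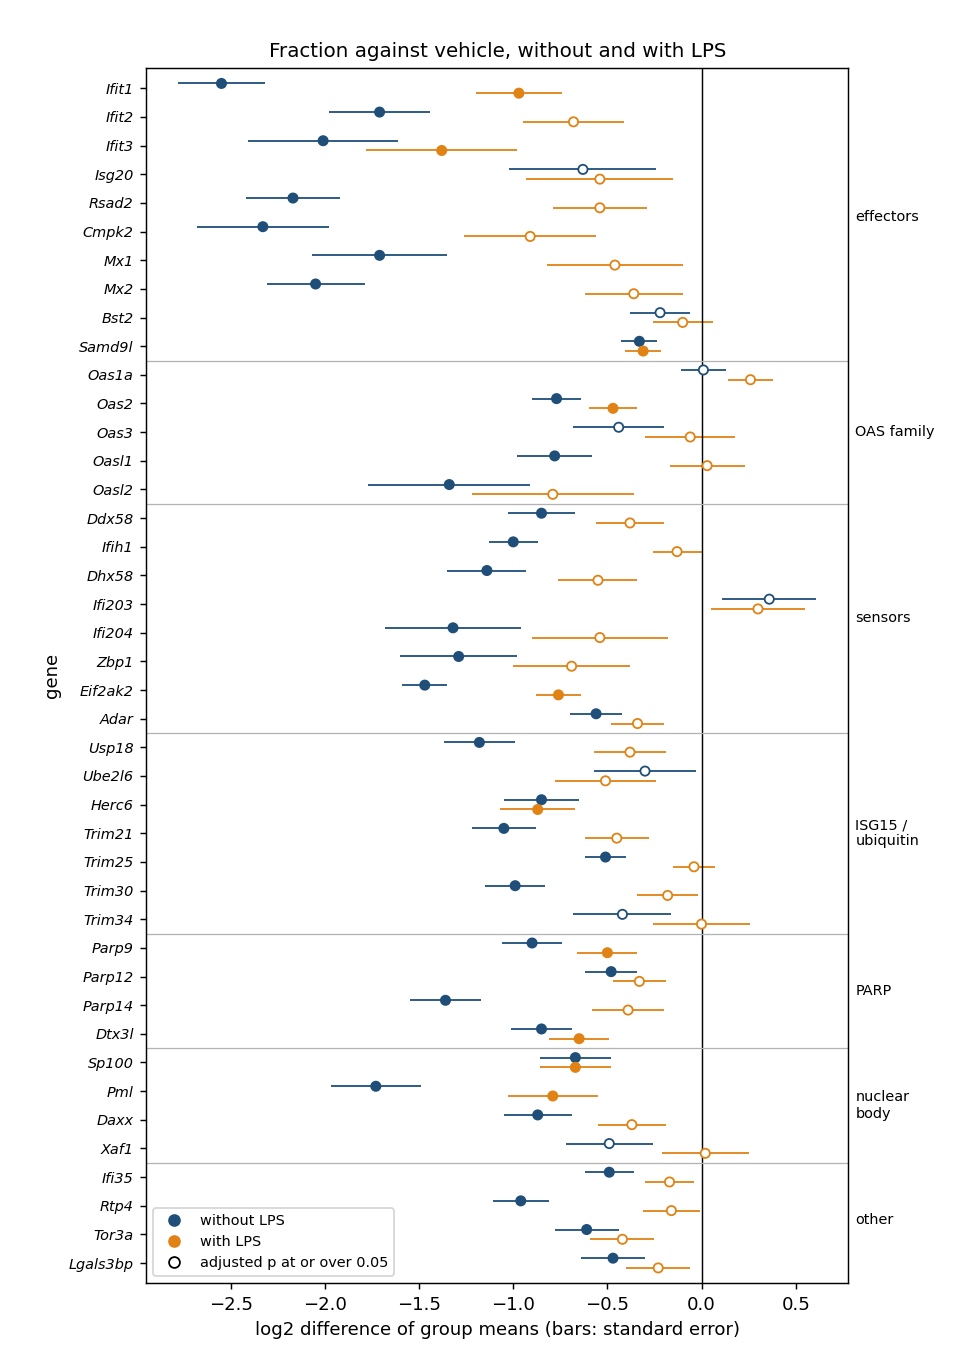
Points are log2 differences of fraction minus vehicle for the 42 members (rows, by role) without LPS and with LPS, bars are standard errors, and filled points passed the threshold (adjusted p under 0.05). Most points without LPS lie further left than those with LPS, and Samd9l, Herc6 and Sp100 have both at nearly the same place.

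Whether the effect of the fraction differed between the LPS states was tested as an interaction. The fall was larger in size without LPS for 37 of 42 members, and the interaction passed for 5, all positive, meaning a greater LPS response in fraction cells than in vehicle cells (positive calls were 0.892% of all tested genes; 16 members had an unadjusted p under 0.05). These were Mx2 (1.69 ± 0.36, adjusted p = 0.019), Rsad2 (1.63 ± 0.35, adjusted p = 0.019), Ifit1 (1.58 ± 0.32, adjusted p = 0.014), Ifih1 (0.86 ± 0.18, adjusted p = 0.016) and Eif2ak2 (0.71 ± 0.17, adjusted p = 0.033). Ifit1, for instance, rose by 4.53 ± 0.23 with LPS in fraction cells and by 2.94 ± 0.23 in vehicle cells. For Samd9l, Herc6 and Sp100 the interaction by the probe set used was 0.02, -0.01 and 0.00. The 95% confidence intervals were -0.26 to 0.30, -0.60 to 0.57 and -0.56 to 0.56. The count of 5 was 10 without vehicle array 1 and 2 without vehicle array 3 (both without LPS), 9 without fraction array 1 with LPS and 8 without fraction array 2 without LPS. With the replicate number as a block in the model it was 17. It was 0 when the intensity trend was left out of limma's variance estimate, with adjusted p-values of 0.058 for Ifit1 and Ifih1, 0.065 for Mx2, 0.071 for Rsad2 and 0.082 for Eif2ak2. Without vehicle array 3 without LPS, the calls of Ifih1 (0.79, adjusted p = 0.053) and Mx2 (1.56, adjusted p = 0.057) were lost. Eif2ak2 lost its call without array 1 of fraction cells and without array 2 or 3 of several groups, with log2 values of 0.56 to 0.74 and adjusted p-values of 0.052 to 0.1. The probe sets of Rsad2 and those of Eif2ak2, each tested on its own, differed in the interaction call. Rsad2 lost its call when the mean of its probe sets was used (adjusted p = 0.10).

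Set beside vehicle cells without LPS, fraction cells with LPS did not always stand higher. All 3 of their arrays lay above all 3 vehicle arrays without LPS for 23 members and overlapped them for 19. Vehicle arrays with LPS lay above them for 36 members (14.7% of all tested genes) and overlapped for 6. For fraction arrays with LPS the share over all tested genes was not computed, so the count of 23 has no such measure beside it. Pml had 599.6 to 1158 in fraction cells with LPS and 575 to 1135 in vehicle cells without it, and Dtx3l 1417 to 2101 and 1319.7 to 2021. These overlaps are a description across both treatments and were not tested.

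The 4-compound mixture left no member past the threshold, with LPS or without it. Both counts were 0 of 42 with limma, and 0% of all 11547 tested genes passed. At an unadjusted p under 0.05 there was 1 member without LPS (Samd9l) and 2 with LPS (Ifi204 and Trim21), where all tested genes had 4.89% and 8.09%. The median log2 difference of the members was 0.02 without LPS, which turned to -0.09 when arrays were centred on their medians, and 0.05 with LPS. Ifit1 had 1774, 1294 and 1114 in mixture cells, against 965, 1219.9 and 1134 in vehicle cells, with overlap, and the 95% confidence interval of its log2 difference was -0.17 to 0.79. With LPS it had 8238, 9597 and 9153 in mixture cells, against 8004, 10536 and 7186 in vehicle cells, with an interval of -0.39 to 0.56. For Eif2ak2 the intervals were -0.15 to 0.36 and -0.19 to 0.31, and for Pml -0.69 to 0.31 and -0.44 to 0.56. Intervals for Ifi204 were wider, -1.27 to 0.24 without LPS and -1.59 to -0.07 with it, where its log2 difference was -0.83 (adjusted p = 0.59). The interaction of the mixture with LPS passed for none of 42 members by limma, and none had an unadjusted p under 0.05 (3.57% of all tested genes did).

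Fraction and mixture were also compared with each other. Without LPS 34 of 42 members were lower in fraction cells than in mixture cells (lower calls were 15.4% of all tested genes), with a median of -0.89, and with LPS 17 were (16.2%), with a median of -0.49. These comparisons share the fraction arrays with the ones against vehicle. Ifit1 differed by -2.86 ± 0.23 without LPS (adjusted p = 1.8e-08) and by -1.05 ± 0.23 with it (adjusted p = 0.0018). Rsad2 had 492, 851 and 617 in fraction cells, against 4327, 3100 and 2208 in mixture cells, and with LPS 8584, 18911 and 11194 in fraction cells, against 21609, 25791 and 26461 in mixture cells. There was no overlap in either state, at -2.28 ± 0.25 (adjusted p = 1.1e-06) and -1.01 ± 0.25 (adjusted p = 0.005). Trim21 with LPS had 607, 962 and 713 in fraction cells, against 1279.7, 1454 and 1412 in mixture cells (-0.89 ± 0.17, adjusted p = 0.0008). The count of 17 was 8 without fraction array 1, 10 without fraction array 3, 9 without mixture array 2 and 8 without mixture array 3, all with LPS. With the replicate number as a block in the model it was 28.

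The arrays of one replicate number differed together across these genes. Array 1 tended to be the lowest of the 3. It was lowest for 38 of 42 members in fraction cells, 22 in mixture cells and 39 in vehicle cells, and with LPS for 39 in fraction cells, 42 in mixture cells and 34 in vehicle cells. Array 2 was the highest for 33, 22 and 29 members in those groups without LPS and for 39, 26 and 35 with LPS. The median deviation of the members from the group mean was -0.36 on vehicle array 1 and 0.25 on vehicle array 2, and -0.29 and 0.34 on the same arrays of fraction cells with LPS, while that of all tested genes stayed between -0.01 and 0.04. What the arrays of one number share is not stated in the labels. Within each number, 41 of 42 members were lower with the fraction than with vehicle when no LPS was present, with medians of -0.82, -0.86 and -0.94. The exception was Oas1a for number 1 and Ifi203 for numbers 2 and 3. With LPS 36 members were lower within each number, with medians of -0.48, -0.22 and -0.48. These counts within a number have no share of all tested genes beside them and describe the members only. Mixture cells without LPS were higher than vehicle cells for 41 members within number 1 (median 0.32), and lower for 28 within number 2 (median -0.11) and 33 within number 3 (median -0.16).

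**Figure D4:**
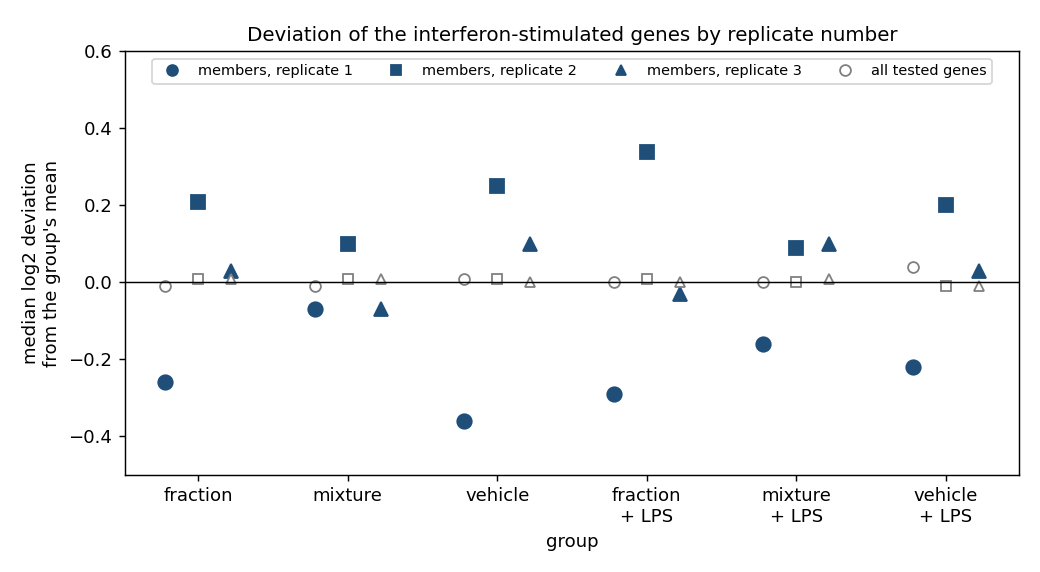
For each group and replicate number the filled symbol is the median over the 42 members, and the open symbol the median over all tested genes, of the log2 deviation from the mean of the 3 arrays of that group. Members lie below 0 on arrays numbered 1 (down to -0.36) and above 0 on arrays numbered 2 (up to 0.34), and all tested genes lie near 0.

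Some genes upstream of this programme rose and some fell with the fraction. Ifnb1, interferon beta, had 10.1, 43.2 and 60.8 in fraction cells without LPS, mostly under the array medians, against 68.5, 64.3 and 75.1 in vehicle cells. The groups did not overlap (-1.21 ± 0.41, adjusted p = 0.029), and since the fraction group lay under the array median the fold was at least 1.14-fold lower. With LPS Ifnb1 had 259, 397 and 321 in fraction cells, against 445, 473 and 547 in vehicle cells, again without overlap though short of the threshold (-0.60 ± 0.41, adjusted p = 0.32), and its rise with LPS in vehicle cells was 2.81 ± 0.41 (adjusted p = 2.7e-05). Over the alternatives the adjusted p of Ifnb1 without LPS was 0.0023 to 0.43. Among 9 measured genes that lead to interferon, the fraction raised 1 and lowered 2 without LPS, and raised 2 and lowered 2 with it. Over all tested genes 15.9% rose and 15.3% fell without LPS, and 11.1% rose and 12.7% fell with it, so these small counts do not set the list apart. Tlr4, the LPS receptor, had 1595, 1540.2 and 1736 in fraction cells, against 731, 659.7 and 753 in vehicle cells, 2.27-fold higher (1.18 ± 0.11, adjusted p = 1.2e-07), and stayed higher with LPS (0.54 ± 0.11, adjusted p = 0.0012, 0.00032 to 0.073 over the alternatives). Irf7, the interferon regulator that is itself induced by interferon, fell by -0.64 ± 0.24 (adjusted p = 0.047, 1.5e-05 to 0.25 over the alternatives) and the DNA sensor Mb21d1 (cGAS) by -0.48 ± 0.099 (adjusted p = 0.0011) without LPS. With LPS the kinase Ikbke was higher in fraction cells (0.82 ± 0.17, adjusted p = 0.0012) and the adaptor Tmem173 (STING) lower (-0.54 ± 0.12, adjusted p = 0.0027).

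Of 7 measured genes of the interferon receptor and its signal, the fraction raised 1 and lowered 3 without LPS. Stat2, a subunit of the complex that binds the response element, had 227, 340.4 and 269 in fraction cells, against 398, 819 and 575 in vehicle cells, without overlap (-1.06 ± 0.25, adjusted p = 0.0028), and its partner Irf9 fell by -0.40 ± 0.11 (adjusted p = 0.01, up to 0.068 over the alternatives). The third was Irf1 (-0.45 ± 0.13, adjusted p = 0.013, up to 0.07). The receptor chain Ifnar2 was higher, with 4237, 4456 and 3966 in fraction cells, against 2221, 2709 and 2279 in vehicle cells (0.82 ± 0.087, adjusted p = 8e-07). For both receptors the interaction with LPS was negative, -0.64 ± 0.15 for Tlr4 (adjusted p = 0.032) and -0.53 ± 0.12 for Ifnar2 (adjusted p = 0.027). Neither call held under all alternatives, where adjusted p-values were 0.017 to 0.36 for Tlr4 and 0.0098 to 0.50 for Ifnar2. Of 3 inhibitors 2 fell without LPS, Socs1 and Socs3, which block receptor-bound kinases. Over all tested genes 15.3% fell there, and 3 genes are too few to set against that share. Socs1 reached the array median on only 11 of 18 arrays, so some of its values were low. Socs3 had 89.7, 123 and 120.5 in fraction cells, against 338, 375 and 479 in vehicle cells (-1.84 ± 0.24, adjusted p = 8.1e-06), and was lower with LPS as well (-0.86 ± 0.24, adjusted p = 0.012, up to 0.059). With the mixture none of these upstream genes passed in either LPS state by limma.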

How the data were processed

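RNA of 18 RAW264.7 samples was hybridized to one-colour Affymetrix arrays. Per the submitters' processing notes, the authors used MAS5 (version not given in the sources used here) and deposited 1 intensity on a linear scale for each of 45101 probe sets. The 2% trimmed mean was 500.0 on all arrays, and medians ran from 52.1 to 66.8. No read depth exists, and the 3 arrays per group limit the precision.

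Values were raised to at least 1 (0.824% lay under it) before log2. Probe sets at or above the array median on at least 3 arrays with 1 gene symbol were kept, and the brightest stood for each of 11547 genes; 20 members had more than 1, and for 10 the one used was of a type open to cross-hybridization. One model with 6 group means (12 residual degrees of freedom) used limma 3.58.1 in R 4.3.3, eBayes modelling the trend with intensity, with 11 two-sided contrasts, Benjamini-Hochberg adjustment over all genes and a threshold of 0.05, and was tested on simulated data. A group under its array median gives a fold as a lower bound. Every measured member is named by rule; full values are given for the 6 largest non-overlapping changes per main comparison and for 12 members throughout, and values of others were added after they were seen. Alternatives were a replicate block, quantile normalization, median centring, the value plus 32, no filter, a 75th percentile filter, no trend, probe set choices, only the arrays compared, and arrays left out. Setting low signals to the array median and testing every probe set were added after seeing the data. Members, gene lists and markers were chosen with earlier results of these data known. RefSeq promoters carry build GRCm38.p6.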

Additional observations from a re-analysis of the deposited data

Results flagged for a closer look

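The effect of the fraction differed between the LPS states for 5 members by limma's interaction test. The interaction, LPS response in fraction cells minus that in vehicle cells, was 1.69 for Mx2, 1.63 for Rsad2, 1.58 for Ifit1, 0.86 for Ifih1 and 0.71 for Eif2ak2 on the log2 scale, with adjusted p-values of 0.019, 0.019, 0.014, 0.016 and 0.033. All 5 were positive within each of the 3 replicate numbers, but these are the arrays that gave the calls, so this adds no separate support. None of the 5 calls held in every setting run, and the count was 0 without the intensity trend. For Rsad2 and Eif2ak2 the call differed between probe sets of the gene.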

How the results depend on the processing

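No member past the threshold changed sign in that comparison under the alternatives run, whereas some values short of it did. Fraction against vehicle without LPS kept 29 to 36 members past the threshold when 1 array was left out and 27 to 38 under the other alternatives, and LPS in vehicle cells 30 to 38 and 31 to 39. For fraction against vehicle with LPS (10 members), leaving out 1 array gave 5 to 22. For fraction against mixture with LPS (17 members), it gave 8 to 22, and leaving out the intensity trend gave 11. The interaction of fraction and LPS (5 members) gave 2 to 10 with 1 array left out, 0 without the intensity trend, 3 with only the arrays compared and 9 without the 6 arrays numbered 1. The causes were not tested.

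With the replicate number as a block, the counts were 26 (25 lower and 1 higher) for fraction against vehicle with LPS, 28 for fraction against mixture with LPS and 17 for the interaction, and the block moved no other count of members by over 1.5 times. The numbers were not taken as pairs: deviations of same-numbered arrays from their group means correlated at 0.018 to 0.17 across all tested genes (9 of 45 pairs over 0.1), against -0.133 to 0.052 for other pairs, although 18 of 18 arrays correlated best with their own number. The members differed more by number than all tested genes did, with median deviations of -0.36 to 0.34 against -0.01 to 0.04. The model without the block leaves that difference in their spread, and its counts for these 3 comparisons were the lower ones. Mixture counts were 0 in all settings run. Probe sets near the array medians, such as Ifi203, Trim34, Mx1 and Ifnb1, limit the size of change that can be seen.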
